A study of Homo sapiens with 6 samples.

Results

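The DEAD-box and DEAH-box RNA helicases were taken as the protein-coding genes whose symbol on the array is DDX or DHX followed by a digit. The rule found 47 genes, 31 DDX and 16 DHX, among 14779 genes with a named row, and each of the 47 had 1 row. It left out 6 rows, those of 4 DDX11L pseudogenes, of the antisense transcript DDX11-AS1 and of the divergent transcript DDX19A-DT. RNA came from BE(2)-C, an established human neuroblastoma line. One group received NCT-503, an inhibitor of the serine synthesis enzyme PHGDH, at 10 µM for 2 days, and the other received the vehicle DMSO for 2 days. Each group had 3 samples, lettered a to c, and 1 single-colour Affymetrix whole-transcript array was run per sample. Both groups are 1 cell line, so differences between lines were not measured, and nothing says whether the samples of a group came from separate cultures, so p-values cover the spread between these samples, which may be technical.

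DEAD-box and DEAH-box proteins use ATP to pry RNA duplexes apart or to strip proteins from RNA, and both are named after the letters of a conserved ATPase motif. DEAD-box members separate short duplexes locally, whereas DEAH-box members move along a strand and are often switched on by partner proteins with a G-patch. Between them they drive spliceosome remodelling, ribosome assembly, mRNA export and mRNA storage, and some sense viral RNA.

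The deposited log2 values of all arrays correlated at 0.990 to 0.993 within groups and 0.971 to 0.972 between groups over all rows. Of 10 neuroblastoma markers 7 were measured: PHOX2A, HAND2, GATA3, ISL1, DBH and CHGA lay between 7.45 and 10.46 in all arrays and TH between 5.82 and 6.19, although without scanner values no row could be set against its background. Of these 7, PHOX2A (0.75), GATA3 (0.37) and DBH (0.37) were called higher and CHGA (-1.23), HAND2 (-0.30) and ISL1 (-0.29) lower (log2 changes), while TH was not called. Of 15 markers of fibroblasts, leukocytes, endothelium and Schwann cells 6 were measured, with a mean log2 value over the list of 5.39 to 5.44 in NCT-503 arrays and 5.13 to 5.18 in DMSO arrays. One of the 6, CD68, which is also a lysosomal gene, was called higher (log2 change 2.25), and 1, DCN, was called lower (-0.47); the part of these in the helicase results was not tested.

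Promoter letters are shown for 6 genes, the 2 largest falls (DDX46, DDX5), the 2 largest rises (DDX47, DDX50) and the neighbours DDX19A and DDX19B, which went opposite ways. Each line gives the 150 bases before the transcript start of the RefSeq table (GRCh38.p14), 5′ to 3′ on the gene's strand, with matches to the searched motifs in capitals.
DDX46 (chr5:134758629-134758778, plus strand): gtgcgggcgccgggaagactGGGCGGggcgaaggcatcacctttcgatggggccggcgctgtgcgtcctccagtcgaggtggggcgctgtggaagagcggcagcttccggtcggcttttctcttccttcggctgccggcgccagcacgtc
DDX5 (chr17:64505938-64506087, minus strand): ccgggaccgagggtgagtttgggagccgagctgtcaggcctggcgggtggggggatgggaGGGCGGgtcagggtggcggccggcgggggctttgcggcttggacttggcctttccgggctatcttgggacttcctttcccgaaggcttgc
DDX47 (chr12:12813196-12813345, plus strand): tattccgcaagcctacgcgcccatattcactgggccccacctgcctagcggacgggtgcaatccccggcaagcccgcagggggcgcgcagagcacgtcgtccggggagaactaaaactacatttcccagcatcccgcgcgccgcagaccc
DDX50 (chr10:68901165-68901314, plus strand): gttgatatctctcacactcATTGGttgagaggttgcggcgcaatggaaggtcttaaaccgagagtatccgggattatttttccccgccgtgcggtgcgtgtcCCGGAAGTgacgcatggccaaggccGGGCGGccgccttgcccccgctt
DDX19A (chr16:70346753-70346902, plus strand): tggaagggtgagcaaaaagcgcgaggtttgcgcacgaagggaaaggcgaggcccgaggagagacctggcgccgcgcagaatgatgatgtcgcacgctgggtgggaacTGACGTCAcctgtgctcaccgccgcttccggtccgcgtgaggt
DDX19B (chr16:70299036-70299185, plus strand): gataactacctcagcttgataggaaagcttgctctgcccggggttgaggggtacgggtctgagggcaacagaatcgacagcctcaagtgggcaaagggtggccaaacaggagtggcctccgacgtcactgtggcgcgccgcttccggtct

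In capitals, DDX46 and DDX5 each hold 1 GC box (GGGCGG), DDX50 holds a CCAAT box (on the opposite strand, ATTGG), an ETS site (CCGGAAGT) and a GC box, and DDX19A holds a CRE (TGACGTCA), the letters that CREB and ATF family factors bind. The 150 bases printed for DDX47 and DDX19B hold no match. Farther upstream, DDX19B holds a GC box 214 bases before the start. DDX50 holds further CCAAT boxes 203 and 178 bases before the start and a further GC box at 160. The motifs were searched on both strands of the 250 bases before the start, and no printed match overlapped another. RefSeq entries were matched for 43 of the 47 genes. A CRE was in 5 of the 43 promoters (11.6%), against 2.25% of 15843 promoters of protein-coding genes, and the 5 genes were DDX19A, DDX28 and DDX51, which were called lower, and DDX10 and DHX36, which were not called. An E-box (CACGTG), the letters that MYC family proteins bind, was in 16.3% of the helicase promoters and 7.50% of promoters of protein-coding genes, with 0 of 4 genes called higher, 2 of 14 called lower and 5 of 25 not called. The CCAAT box was in 51.2% and 33.9%, the GC box in 60.5% and 54.4%, the ETS site in 9.30% and 4.87%, and the NRF1 site by name in 2.33% and 1.39%. The ATF4 element TGATGNAA was in 0 of the 43 promoters and in 2.46% of promoters of protein-coding genes, and the YY1 site by name was in 0 and 0.271%. These matches describe letters and were not tested as binding sites.

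After NCT-503, RNA helicase transcripts were more often called lower than called higher. At an adjusted p under 0.05 (limma, Benjamini-Hochberg over all 14779 genes), 16 of the 47 genes (34.0%) were lower and 5 (10.6%) were higher. Over all genes tested 17.1% were called lower and 16.4% higher. The helicases had a higher median level and a smaller median standard error (0.084 against 0.105), which makes calls easier. Among genes above the 25th percentile of mean level, 2661 of 11084 were called lower and 2474 higher. Of the 43 helicases among them, 16 were lower and 6 higher. The part of level in this difference was not tested, and shares of all genes quoted for roles and partners were likewise unmatched. The falls were led by the splicing helicase DDX46 and by the splicing and transcription cofactor DDX5, and the rises by the nucleolar helicases DDX47 and DDX50. A change is the NCT-503 mean minus the DMSO mean on the log2 scale, given with its standard error from limma (SE). Changes ran over the 47 genes from -1.30 to 0.65 with a median of -0.09, against a median of 0.06 over all genes. At least 1.5-fold, 6 of the 47 (12.8%) were called lower and 2 (4.26%) higher, against 8.86% and 4.96% of all genes. In 20 helicases (42.6%) every NCT-503 array lay below every DMSO array and in 9 (19.1%) every NCT-503 array lay above, against 22.4% and 25.4% of all genes.

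**Figure D1:**
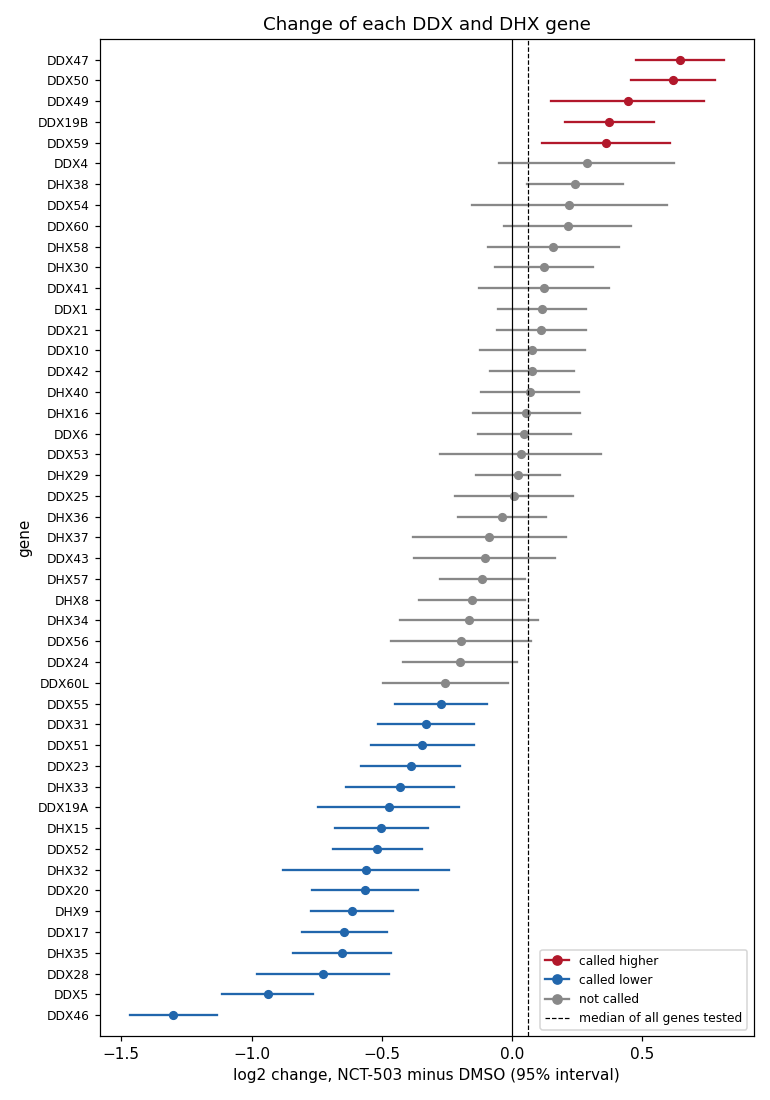
Log2 change (NCT-503 minus DMSO, dots) of each of the 47 DDX and DHX genes with its 95% interval (lines), sorted from the largest rise to the largest fall, with the median of all genes tested as a dashed line. The 5 genes called higher sit at 0.36 to 0.65, and the 16 called lower run from -0.27 to -1.30.

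DDX46 is the human counterpart of yeast Prp5, which helps U2 snRNP settle on the branch point when the spliceosome first forms. It read 7.65, 7.68 and 7.70 in the NCT-503 arrays a, b and c, against 8.97, 8.93 and 9.03 in the DMSO arrays. The groups lay more than 1 log2 unit apart, and the 3 arrays of each group lay close together. The fall was 1.30 ± 0.07 (SE, n = 3 per group, adjusted p = 4.62e-05), which left 40.6% of the DMSO signal and was the largest change of the family. DHX35, found in spliceosomes with a less known function, read 6.33, 6.47 and 6.52 in NCT-503 arrays and 7.10, 7.12 and 7.05 in DMSO arrays, with no overlap. It fell by 0.65 ± 0.08 (adjusted p = 0.000958).

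DHX15, the counterpart of yeast Prp43, takes spent lariat spliceosomes apart. It read 8.66, 8.65 and 8.71 with NCT-503 and 9.14, 9.26 and 9.13 with DMSO, and fell by 0.50 ± 0.08 (adjusted p = 0.00229). DDX23, the counterpart of Prp28, which swaps U1 for U6 at the 5′ splice site, fell by 0.39 ± 0.08 (adjusted p = 0.00933). Of 10 measured spliceosomal helicases limma called 4 (40%) lower and 0 higher, against 17.1% and 16.4% of all genes. The changes were above 0 in 5 and below 0 in 5, with a median of -0.05. At an unadjusted p under 0.05, 4 were lower and 1, DHX38, was higher, and without variance moderation DHX38 was called (adjusted p = 0.0477). The other 6 did not pass: DHX38 (0.24), DDX41 (0.12), DDX42 (0.08), DHX40 (0.07), DHX16 (0.05) and DHX8 (-0.15). DHX16, DHX38 and DHX8 are the counterparts of Prp2, Prp16 and Prp22, which act around the catalytic steps. DHX38 came nearest to a call (adjusted p = 0.0517), with 7.21, 7.13 and 7.18 in NCT-503 arrays above 6.92, 7.03 and 6.86 in DMSO arrays. It was called higher in 8 of 18 alternative settings. Among these were each array centred on its median (0.28, adjusted p = 0.0268) or on its 75th percentile (0.31, adjusted p = 0.0191). Quantile normalization (0.31, adjusted p = 0.0183) and leaving out DMSO b (0.29, adjusted p = 0.0496) were others.

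DDX5 and DDX17, close paralogs also called p68 and p72, are cofactors of transcription and alternative splicing and assist in microRNA processing. DDX5 read 9.67, 9.71 and 9.74 with NCT-503 and 10.71, 10.59 and 10.63 with DMSO. It fell by 0.94 ± 0.07 (adjusted p = 0.000157), to 52.2% of the DMSO signal. DDX17 read 9.82, 9.75 and 9.75 with NCT-503 and 10.40, 10.42 and 10.42 with DMSO, a fall of 0.64 ± 0.07 (adjusted p = 0.000544). DHX9, RNA helicase A, resolves double-stranded RNA and RNA-DNA hybrids. It read 9.43, 9.45 and 9.45 with NCT-503 and 10.05, 10.06 and 10.06 with DMSO, and fell by 0.61 ± 0.07 (adjusted p = 0.000591). All 3 genes of this group were called lower, without overlap between groups. Of all genes 17.1% were called lower, and in 22.4% every NCT-503 array lay below every DMSO array. The role lists were chosen with earlier results of these data known.

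**Figure D2:**
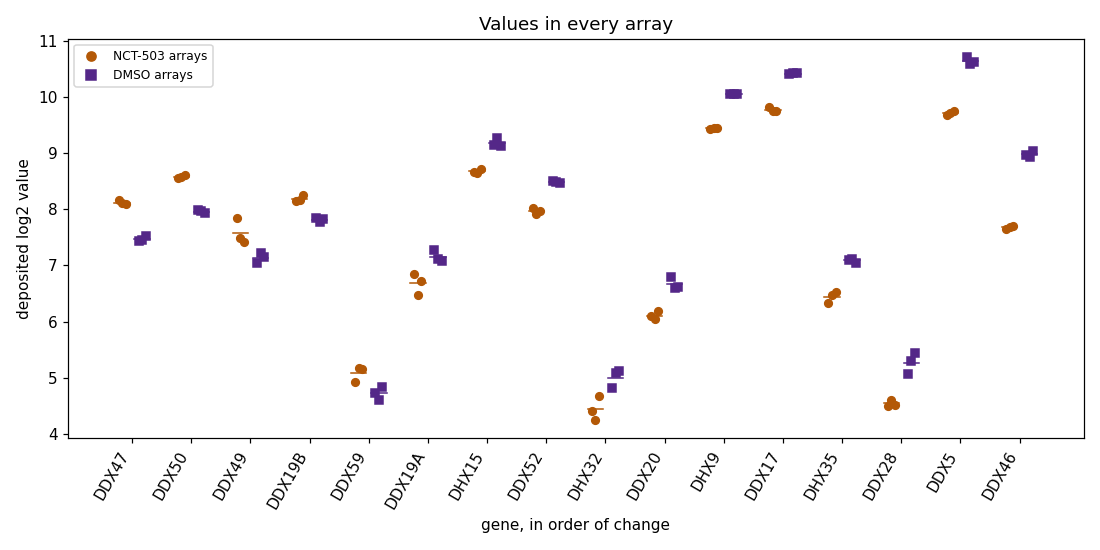
Deposited log2 value of 16 DDX and DHX genes in each NCT-503 array (circles) and each DMSO array (squares), with short lines at group means and genes ordered by change. The groups separate in each of the 16 genes; DDX49 and DHX32 show the widest scatter among NCT-503 arrays.

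Of 14 measured ribosome assembly helicases, 3 (21.4%) were called higher and 5 (35.7%) lower, against 16.4% and 17.1% of all genes; the share called higher lay near that of all genes. DDX47, the counterpart of yeast Rrp3, which acts on the small subunit, read 8.16, 8.11 and 8.10 with NCT-503 and 7.43, 7.46 and 7.53 with DMSO. It rose by 0.65 ± 0.07 (1.56-fold, adjusted p = 0.000622). DDX50, a nucleolar paralog of DDX21, read 8.56, 8.57 and 8.61 with NCT-503 and 7.98, 7.97 and 7.93 with DMSO. Its rise was 0.62 ± 0.07 (1.54-fold, adjusted p = 0.000625), and the groups lay far apart relative to their scatter. DDX49, the counterpart of the small-subunit factor Dbp8, read 7.84, 7.48 and 7.41 with NCT-503 and 7.04, 7.22 and 7.15 with DMSO. NCT-503 a stood well above b and c. The rise of 0.44 ± 0.13 had an adjusted p of 0.0308, which became 0.0960 without DMSO a, 0.0523 without DMSO b and 0.0738 without DMSO c.

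DDX52, the counterpart of yeast Rok1, a small-subunit factor, read 8.03, 7.91 and 7.96 with NCT-503 and 8.51, 8.48 and 8.47 with DMSO. It fell by 0.52 ± 0.07 (adjusted p = 0.00168). DHX33, which takes part in ribosomal RNA synthesis, fell by 0.43 ± 0.09 (adjusted p = 0.00902). The large-subunit factors DDX51, DDX31 and DDX55, counterparts of yeast Dbp6, Dbp7 and Spb4, had smaller falls of 0.34, 0.33 and 0.27. Each of these 3 calls depended on single arrays. DDX51 had an adjusted p of 0.0178, and 0.0550 without DMSO b and 0.0514 without NCT-503 a. DDX31 had 0.0158, and 0.0591 without DMSO c. For DDX55 the adjusted p was 0.0292, and it was 0.0682, 0.0826 and 0.0793 without DMSO a, b or c, 0.0799 and 0.0705 without NCT-503 b or c, and 0.0598 after centring each array on its 75th percentile.

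The other 6 ribosome assembly helicases were not called, with changes of 0.22 (DDX54), 0.11 (DDX21), 0.08 (DDX10), -0.09 (DHX37), -0.19 (DDX56) and -0.20 (DDX24). DDX54 had the widest scatter of the family among NCT-503 arrays, 7.43, 7.41 and 6.89, against 6.91, 7.18 and 6.98 in DMSO arrays. Without NCT-503 c its change was 0.40 and it was called higher (adjusted p = 0.0361).

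**Figure D3:**
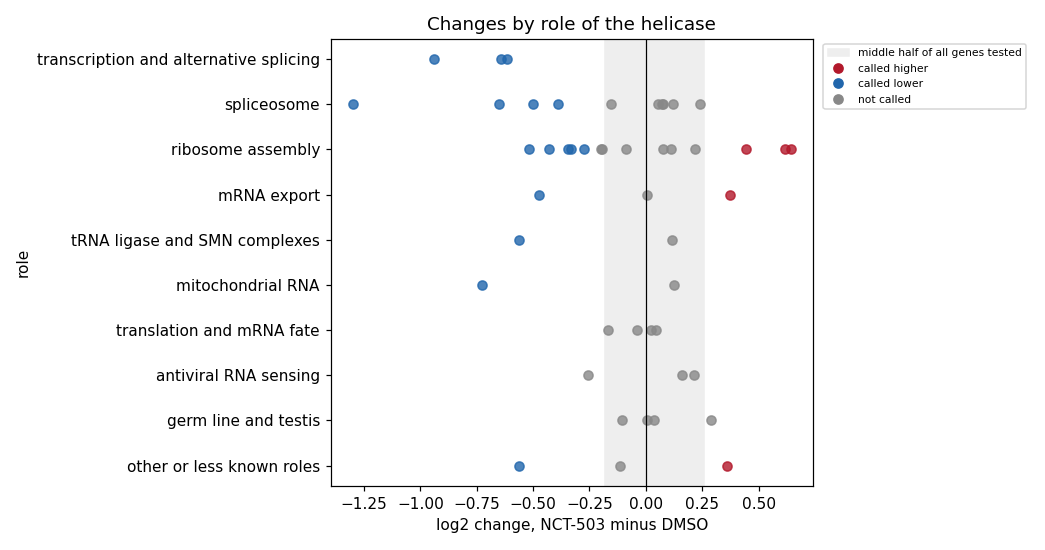
Log2 change (NCT-503 minus DMSO) of each DDX and DHX gene by role, coloured by call, over a band that spans the 25th to the 75th percentile of all genes tested (-0.18 to 0.26). The 3 transcription and alternative splicing genes sit left of the band, the ribosome assembly genes lie on both sides, and the translation group stays inside; DDX25 appears under 2 roles.

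DDX19A and DDX19B, counterparts of yeast Dbp5, release mRNA from export factors on the outer face of the nuclear pore. They are neighbours on chromosome 16 with no protein-coding gene between them in RefSeq and closely alike, so probes may not separate them fully. DDX19B read 8.15, 8.17 and 8.26 with NCT-503 and 7.84, 7.78 and 7.83 with DMSO, and rose by 0.37 ± 0.07 (1.30-fold, adjusted p = 0.00701). DDX19A read 6.84, 6.47 and 6.73 with NCT-503 and 7.27, 7.12 and 7.07 with DMSO. It fell by 0.47 ± 0.12 (adjusted p = 0.0178), and without DMSO a its adjusted p was 0.0624. GLE1, which switches this helicase on at the pore, had a change of 0.02 and was not called, and NUP214, its docking nucleoporin, fell by 0.33 (adjusted p = 0.0109). DDX25, a testis helicase of the same branch, had a change of 0.01.

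For 4 pairs of paralogs the difference between the 2 genes was taken within each array and compared between groups. Within an array, DDX19A minus DDX19B was lower by 0.85 with NCT-503 than with DMSO (difference of changes -0.85), DDX21 minus DDX50 by 0.51 (-0.51) and DDX5 minus DDX17 by 0.30 (-0.30). DDX60 minus DDX60L was higher by 0.47. In all 4 pairs the NCT-503 and DMSO arrays did not overlap. Among single genes, every NCT-503 array lay above every DMSO array in 25.4% of all genes and below in 22.4%. The differences were also entered as further rows of the limma fit and adjusted with all genes, a test added after the values were seen. Each was divided by the square root of 2 for the fit, and its change and interval were scaled back. This scaling assumes that the 2 genes of a pair vary independently, which was not tested. In this fit the adjusted p was 0.00281 for DDX19A minus DDX19B (95% interval -1.16 to -0.53) and 0.00646 for DDX21 minus DDX50 (-0.73 to -0.28). It was 0.0388 for DDX60 minus DDX60L (0.14 to 0.80), though neither gene was called alone, and 0.0678 for DDX5 minus DDX17 (-0.54 to -0.05), which did not pass. The planned exact two-sided permutation test gave p = 0.1 for each pair, the smallest p that this test can give with 3 against 3 arrays, so it could not separate them. DDX21 and DDX50 are also neighbours, on chromosome 10, and DDX60 and DDX60L on chromosome 4.

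**Figure D4:**
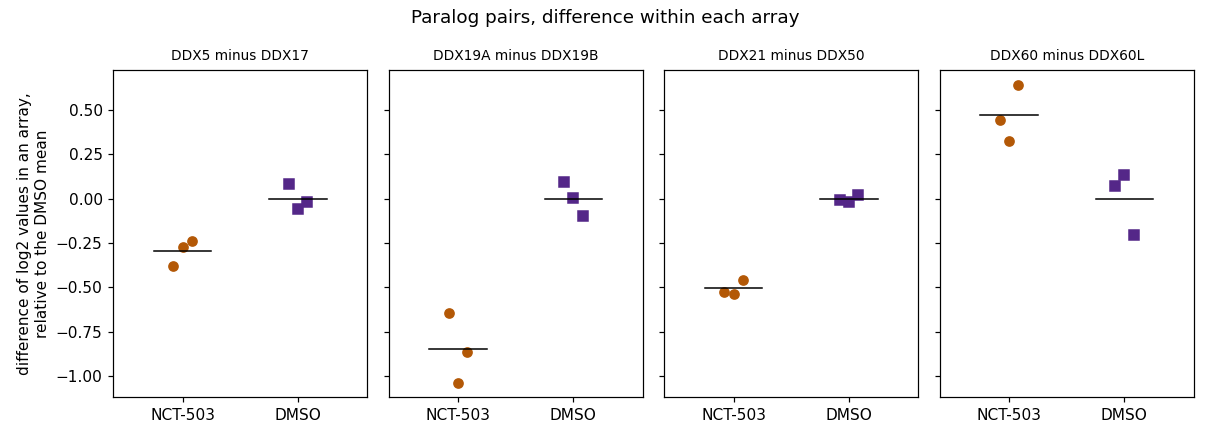
Difference of log2 values between the 2 genes of a pair in each array, shifted so that the DMSO mean of each pair is 0, for NCT-503 arrays (circles, left) and DMSO arrays (squares, right), with lines at group means. NCT-503 arrays lie below DMSO arrays for DDX5 minus DDX17, DDX19A minus DDX19B and DDX21 minus DDX50, and above them for DDX60 minus DDX60L.

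DDX20, or Gemin3, is the helicase of the SMN complex, which loads Sm proteins onto spliceosomal small nuclear RNAs. It read 6.09, 6.04 and 6.18 with NCT-503 and 6.79, 6.59 and 6.62 with DMSO, and fell by 0.56 ± 0.09 (adjusted p = 0.00250). Of the 6 other Gemin genes measured, named after their values were seen, 4 were called lower: GEMIN7 (-1.01), GEMIN4 (-0.61), GEMIN6 (-0.49) and GEMIN5 (-0.41). GEMIN2 was called higher (0.36), and GEMIN8 was not called (-0.22). The shares of all genes were 17.1% called lower and 16.4% called higher. DDX1 belongs to the tRNA ligase complex, and its gene lies near MYCN and is co-amplified with it in some neuroblastomas. It read 9.86, 9.90 and 9.94 with NCT-503 and 9.73, 9.80 and 9.81 with DMSO, with no overlap but a change of 0.12 ± 0.07 that was not called (adjusted p = 0.252). Its partner RTRAF rose by 0.50 (adjusted p = 0.00175), and the ligase RTCB had a change of 0.14 and was not called.

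DDX28, which takes part in assembling the large mitochondrial ribosomal subunit, read 4.50, 4.61 and 4.52 with NCT-503 and 5.07, 5.30 and 5.44 with DMSO. It fell by 0.72 ± 0.11 (adjusted p = 0.00218), to 60.5% of the DMSO signal. DHX30, a helicase of mitochondrial RNA granules, had a change of 0.12 and was not called. Of the remaining genes, DDX59, in which mutations cause an orofaciodigital syndrome, read 4.92, 5.17 and 5.16 with NCT-503 and 4.72, 4.60 and 4.84 with DMSO. Its rise of 0.36 ± 0.10 (adjusted p = 0.0337) was not called without DMSO a (0.0854), DMSO b (0.0992), NCT-503 b (0.0984) or NCT-503 c (0.0914). DHX32, a DEAH-box relative of less known function, read 4.41, 4.25 and 4.67 with NCT-503 and 4.81, 5.09 and 5.12 with DMSO. It fell by 0.56 ± 0.14 (adjusted p = 0.0170), and the adjusted p was 0.0538 without DMSO b, 0.0576 without DMSO c and 0.0517 without NCT-503 a. DHX57 had a change of -0.11 and was not called.

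Of the 4 measured helicases of translation and mRNA fate limma called 0, and 0 had an unadjusted p under 0.05 or a call without variance moderation. Most genes were likewise not called (9826 of all 14779), so 0 of 4 does not set this group apart. DDX6 holds mRNAs silent in P-bodies and promotes their decapping; it read 10.06, 10.06 and 10.13 with NCT-503 and 10.10, 9.96 and 10.05 with DMSO, a change of 0.05 (95% interval -0.13 to 0.22). DHX29, which helps the ribosome scan structured leaders, had a change of 0.02 (-0.14 to 0.19), and DHX36, which unwinds G-quadruplexes, had -0.04 (-0.21 to 0.13). DHX34, a factor of nonsense-mediated decay, had -0.17 (-0.43 to 0.10). The groups overlapped in all 4.

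Limma called 0 of the 3 antiviral helicases, where 9826 of all 14779 genes were also not called. At an unadjusted p under 0.05, 1 (DDX60L) was lower, and without variance moderation 0 were called. DDX60 had a change of 0.21, DHX58, or LGP2, had 0.16 and DDX60L had -0.26. Without DMSO b, DDX60L had -0.35 and was called lower (adjusted p = 0.0370). The germ-line helicases DDX4 (0.29), DDX53 (0.03) and DDX43 (-0.10) were not called. Their levels were at 2.91 or below in all 6 arrays, in the lower part of the scale, so their changes may be understated.

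Of the 26 helicases not called, 11 had a 95% interval within 0.3 of 0 on both sides, and the intervals of all 26 lay between -0.49 and 0.62. The median SD between arrays over the 47 genes was 0.08 in the NCT-503 group and 0.07 in the DMSO group, against 0.12 and 0.11 over all genes. Of the 47 genes, 43 had a mean level above the 25th percentile of all genes tested.

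Among 18 helicases of related families outside the naming rule 12 were measured, of which 3 were called higher and 2 (16.7%) lower, against 16.4% and 17.1% of all genes. SKIC2, of the Ski complex that feeds the exosome, rose by 0.38, IGHMBP2 by 0.36, and SNRNP200, the U5 helicase Brr2, by 0.24 (adjusted p = 0.0489). EIF4A3, the DEAD-box core of the exon junction complex, fell by 0.56 (adjusted p = 0.00469) and HELZ by 0.54. The RNA sensors RIGI (0.24) and IFIH1 (-0.01) were not called. Among 47 partners and activators of these helicases 33 were measured, with 12 lower (36.4%) and 5 higher (15.2%), against 17.1% and 16.4% of all genes; the share called higher was near that of all genes. The largest falls after GEMIN7 were those of EIF4ENIF1, a partner of DDX6 that also binds eIF4E (-0.92), and PDCD4, an inhibitor of eIF4A (-0.85). PATL1, another DDX6 partner, rose by 0.42.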

How the data were processed

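The authors' deposited table was read as log2 values, since they ran from 0.578 to 13.6 without centring per gene. Partek was used by the authors, per the submitters' processing notes. How background was corrected, probes summarised and arrays normalized was not stated: not given in the sources used here. Of 31135 rows, 15098 had 1 gene symbol in the platform annotation, none had several and 16037 had none. Symbols were updated by Entrez identifier through RefSeq (GRCh38.p14), and the row with the highest mean was kept per gene, which gave 14779 genes. Precision is limited by the number of arrays.

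The fit used R 4.3.3 and limma 3.58.1 (lmFit, then eBayes), with both groups in 1 model and no covariates; tests were two-sided, with calls at an adjusted p under 0.05. Only the limma fit was tested on simulated data, with independent noise and 200 genes changed. The permutation test, the fit of paralog differences and the motif search were not. The members, role lists, partner lists and tests were chosen with earlier results of these data known. Values in every array are given for the 8 largest rises (5 were called) and the 8 largest falls among called members and for up to 3 called members per role. Context genes are the 3 largest calls each way; Gemin genes, GLE1, NUP214, RTCB, RIGI and IFIH1, and uncalled members given by array, were added after values were seen. Listed genes without a named row, DDX3X, DDX3Y, DDX11, DDX12, DDX18, DDX27, DDX39A and DDX39B, were not analysed here, nor was the DDX39A and DDX39B pair. Alternatives were other variance moderation, array weights, the replicate block, centring, quantile normalization, a filter on dim genes, other choices of row, every row of the table, an adjusted p under 0.01 and leaving out each array.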

Additional observations from a re-analysis of the deposited data

How the results depend on the processing

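Across 18 alternatives, 14 of the 21 called helicases kept their call and direction in every one, 3 higher (DDX47, DDX50, DDX19B) and 11 lower, and no call turned round. The 5 genes called higher became 3 with the replicate block (without DDX49 and DDX59) and 3 at an adjusted p under 0.01. They were 3 to 5 when 1 array was left out (3 without DMSO a), and 4 to 7 in the other alternatives. The 16 called lower were 15 with the replicate block (without DDX55), 11 at an adjusted p under 0.01, 13 to 15 when 1 array was left out, and 14 to 17 in the other alternatives. Arrays sharing a letter did not deviate together (correlations of deviations from group means 0.0036, 0.0026 and 0.037 for a, b and c), so the letters were not taken as pairs; 3 of 6 arrays correlated best with their own letter. Without moderation DDX49, DDX59, DDX19A and DHX32 were not called (adjusted p 0.0994, 0.0848, 0.0670 and 0.0751). With trend and robust settings DHX38, DDX1 and DDX24 were also called (adjusted p = 0.0178, 0.0492 and 0.0379). Over all genes, centring on the 75th percentile moved the calls to 3345 higher and 2189 lower, against 2419 and 2534, while the helicases had 6 higher and 15 lower. The differences between paralogs kept their sign when any 1 array was left out. No scanner values were used, so signal over background, which limits dim genes such as DDX4, is unknown.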
